A study of Mus musculus and Rattus norvegicus with 11 samples.

Results

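The NOD control Schwann cells described here are the cells that the authors' annotation names mySC in the 3 NOD control libraries. They were chosen by that name and by the library number in the barcode, which gave 760 of 5347 annotated NOD control cells, 15672 annotated mouse cells and 28032 annotated cells in the whole series. The series measured single cells of peripheral nerve by droplet 3' RNA sequencing in mice, and in rats not used here. In mice, the tissue was sciatic nerve with brachial plexus, digested with enzymes; myelin was removed from the suspension and live cells were sorted. NOD is an inbred mouse strain prone to autoimmunity. The groups used were NOD control, NOD mice labelled ICAM-1-1/-NOD and called ICAM-1-/-NOD in the series' design, which sequenced them to study chronic autoimmune neuritis, and undiseased C57BL/6 mice, with 3 libraries each. The labels give no age, sex, number of pooled animals or treatment, and they do not say how the Icam1 allele was made. The titles give libraries 2-1 and 2-2 of NOD control the same first number, and they were summed as 1 sample, NOD control 2, so there were 2 NOD control samples. Nothing in the labels says that libraries came from separate animals, so a p-value measures the spread between these samples, which may be technical.

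Schwann cells wrap the axons of peripheral nerves. Myelinating Schwann cells spiral around 1 axon and compact their membrane into myelin, which needs large amounts of PMP22, myelin basic protein (Mbp) and of galactolipids and cholesterol, under the control of the transcription factors SOX10, OCT6 (Pou3f1) and EGR2. Nonmyelinating Schwann cells hold small axons in bundles, make no myelin and express adhesion molecules such as NCAM and L1, the low-affinity neurotrophin receptor (Ngfr) and the sodium channel Scn7a. After injury, Schwann cells raise JUN and other genes of a repair state.

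The NOD control samples held very different numbers of mySC. Library 1 had 20 of its 1400 annotated cells (1.43%, 95% Clopper-Pearson interval 0.875 to 2.20%), library 2-1 had 334 (16.8%, 15.2 to 18.5%) and library 2-2 had 406 (20.7%, 18.9 to 22.6%), where intervals cover counting error only. The mean over the 2 samples was 10.1% ± 12.2 (SD, n = 2), against 5.07% ± 4.21 (SD, n = 3) in C57BL/6 and 2.44% ± 0.764 (SD, n = 3) in the mice labelled Icam1 knockout. The samples of each group overlapped those of NOD control, and neither difference passed a two-sided exact permutation test over samples (p = 0.7 and 0.4, where 10 splits allow no less than 0.1). Without NOD control 2 both differences turned over, to -3.64 and -1.01 percentage points, and with non-leukocytes as the total the difference from the labelled knockout was -14.4 points. Leukocytes made up 8.86 to 34.1% of annotated cells in NOD control and 91.5 to 91.8% in the labelled knockout.

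The 760 cells carried 568652 UMIs (counted RNA molecules), of which 13094 were in library 1, 226440 in library 2-1 and 329118 in library 2-2. The median was 597.5 UMIs a cell (391 to 4533), against 696 over all annotated NOD control cells. Scrublet, which looks for barcodes that resemble mixtures, marked 7 of the 760 as doublets, and 18 had a barcode tag that also occurred in another library. RNA of other cell types was low in mySC. Summed levels, in CPM (the gene's UMIs per 1e6 UMIs of the cells summed), were 176 for a myeloid marker list (33842 in MC, with the myeloid genes Csf1r and Aif1 at 0 in mySC), 127 for B cell markers (6652 in BC, Pax5 at 0), 79.1 for T cell markers (5010 in CD4), 209 for endothelial markers (12180 in EC) and 171 for mural markers (15742 in vSMC/PC, Myh11 and Des at 0). The fibroblast list reached 7147 CPM, against 131880 CPM in nmSC, the type with the most cells (2203). The type names are the authors' and the files do not spell them out.

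The label fitted the pooled counts: the leading genes of NOD control mySC included structural and lipid genes of myelin. Pmp22 was at 15885, 32384 and 26392 CPM in libraries 1, 2-1 and 2-2, and the highest other type, vSMC/PC, was at 829. Ugt8a, the enzyme that makes the galactolipid of myelin, was at 764, 963 and 735 CPM, against 3 UMIs or 15.7 CPM in EC. Fam178b was at 687, 1157 and 978 CPM, with EP at 77.8. All 3 libraries were far above each other type for these genes. Since types were named from the same counts, the ratios that follow describe the annotation and were not tested.

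The 15 genes with the largest ratio of mySC to the highest other type, among those with at least 50 UMIs, were led by Ugt8a (52.8-fold, 95% exact interval 18.0 to 257, counting error only). The metallothionein Mt3 (43.4-fold, 7.74 to 1716) and periaxin, Prx (38.4-fold, 13.0 to 187), came next. Kif1a, a motor of axonal and vesicle transport, Pmp22 (34.4-fold, 25.7 to 47.2), the amino acid transporter Slc36a2, the tight junction protein claudin 19 (Cldn19) and connexin 32 (Gjb1), which couples the layers of the myelin sheath, followed. The phosphatase Dusp15, the axon-facing adhesion molecule Cadm4, Ncmap, Mag, a myelin protein that faces the axon, Pou3f1, Mlip and the ephrin receptor Epha5 completed the 15, down to 16.2-fold. Library 1, with 20 cells, had 1 UMI each of Kif1a, Slc36a2 and Gjb1.

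**Figure D1:**
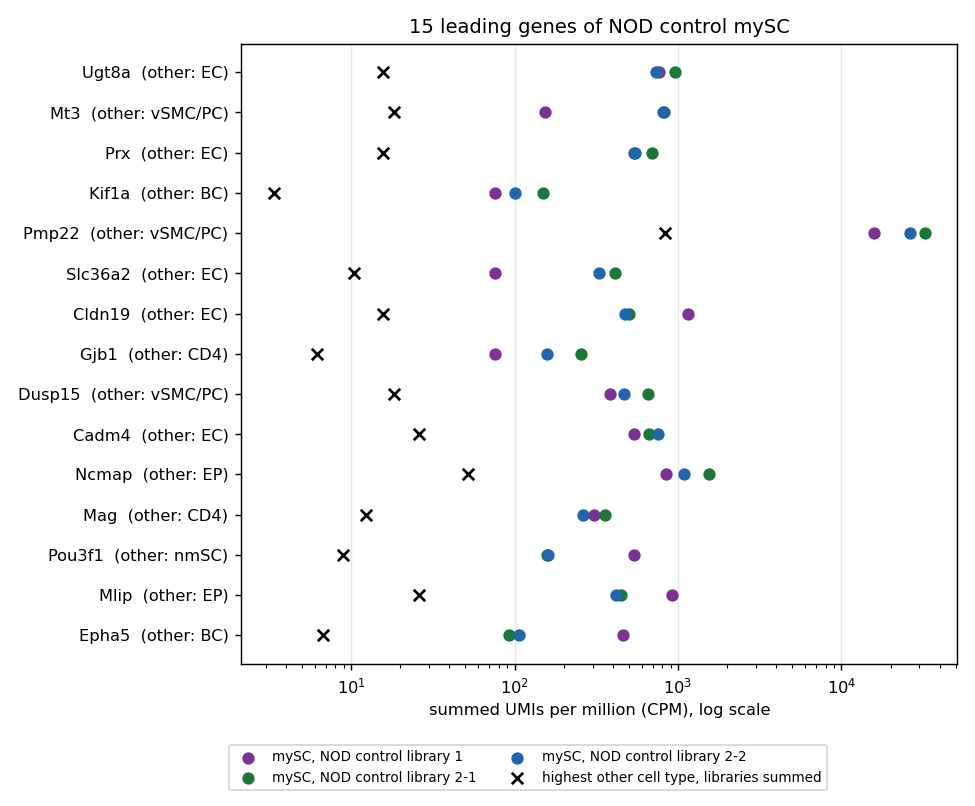
Summed CPM on a log axis of the 15 leading genes in the mySC of each NOD control library (points) and in the highest other NOD control cell type (crosses, libraries summed, type named at the left). The crosses lie left of every point, and Pmp22 is at 15885 to 32384 CPM in mySC and at 829 in vSMC/PC.

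Of 4235 genes with at least 20 UMIs in mySC, 924 were highest in mySC and 136 (3.21%) were at least 4-fold over each of the 8 other types with at least 50 cells. The median ratio to the highest other type was 0.652 over all 4235 genes. For the myelin protein list it was 15.7, with 12 of 13 members at 4-fold or more. It was lower but above 1 for the other lists of Schwann cells and lipids: 5.17 for pan Schwann genes (5 of 5 members highest in mySC), 4.40 for nonmyelinating Schwann genes (6 of 6), 2.48 for Schwann regulators (9 of 13), 1.89 for enzymes of myelin lipid synthesis (10 of 13) and 1.63 for cholesterol synthesis (16 of 19). For the MHC class I list it was 0.262, with 0 of 9 members highest in mySC. Besides class I chains, that list holds peptide transport, loading and immunoproteasome genes, such as Tap1, Tapbp and Psmb8. The 5 genes whose level over the 9 types was most like that of Pmp22, by Pearson correlation of log2(CPM + 10), were Vat1l (0.968), Gldn (0.967), Kif1a (0.966), Slc36a2 (0.954) and Cldn19 (0.954). Those types share libraries and differ in depth, so the correlations are a description.

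Promoter sequence is shown for 4 genes that mark the groups of cells described here: Gjb1 and Mag, the leading genes whose promoters held the motif searched, Ugt8a, a marker of the type, and Scn7a, which led the other set of cells found below within mySC. The motif was ACAAAG on either strand (CTTTGT on the other), letters that SOX factors, SOX10 among them, are known to bind. Each line holds the 250 bases before a gene start, 5′ to 3′ on the gene's strand, from RefSeq on GRCm38.p6, with the motif in capitals. Gjb1 is at chrX:101383482-101383731 (plus strand, 1 of its 4 listed starts), Mag at chr7:30914864-30915113 (minus strand, 1 of 3), Ugt8a at chr3:125938653-125938902 (minus strand) and Scn7a at chr2:66784911-66785160 (minus strand).
Gjb1: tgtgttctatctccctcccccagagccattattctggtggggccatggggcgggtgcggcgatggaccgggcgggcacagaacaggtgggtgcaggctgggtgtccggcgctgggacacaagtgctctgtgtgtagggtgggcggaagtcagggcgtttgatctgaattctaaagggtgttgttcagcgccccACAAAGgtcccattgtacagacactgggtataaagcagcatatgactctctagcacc
Mag: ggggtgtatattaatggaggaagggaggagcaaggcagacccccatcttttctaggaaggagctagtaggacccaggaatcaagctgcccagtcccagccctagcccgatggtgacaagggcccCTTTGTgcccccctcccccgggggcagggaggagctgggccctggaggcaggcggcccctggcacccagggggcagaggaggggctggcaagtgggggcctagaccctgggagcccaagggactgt
Ugt8a: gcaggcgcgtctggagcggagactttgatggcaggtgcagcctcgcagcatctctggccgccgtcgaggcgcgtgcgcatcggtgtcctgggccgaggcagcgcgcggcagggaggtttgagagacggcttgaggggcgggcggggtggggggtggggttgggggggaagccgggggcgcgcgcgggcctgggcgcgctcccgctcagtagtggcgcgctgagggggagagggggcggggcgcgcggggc
Scn7a: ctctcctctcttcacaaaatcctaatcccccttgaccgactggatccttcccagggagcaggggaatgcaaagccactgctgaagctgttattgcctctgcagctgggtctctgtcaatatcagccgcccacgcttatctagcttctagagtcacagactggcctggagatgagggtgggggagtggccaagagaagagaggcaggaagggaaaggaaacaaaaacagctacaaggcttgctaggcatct
Of the 15 leading genes 12 matched an entry, with 24 starts, and 2 genes (4 starts) held the motif. Of the 10 genes that led that other set of cells, 7 matched an entry, with 7 starts, and 1, Chl1, held the motif. The 4 genes shown therefore do not stand for a difference between the sets. Among all 32817 mouse promoters of that length, 16.5% held it. The match is a description of letters and not a site. In the genome annotation (GENCODE vM21, GRCm38) Pmp22 lies at chr11:63128982-63159547, Ugt8a at chr3:125865271-125938619, Fam178b at chr1:36562692-36683183 and Scn7a at chr2:66673425-66784914.

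The cells named mySC were not of 1 kind. The share of a cell's UMIs that came from Pmp22 fell into a high and a low range: 317 cells (41.7%, Clopper-Pearson interval 38.2 to 45.3%) had at least 1.5%, with a median of 4.71%, and 443 had less, with a median of 0.229%. Only 22 cells lay between 1% and 2%. The cell just above the cut had 1.502% and the cell just below 1.394%, and 114 cells had no UMI of the gene. The cut was set after seeing the data, where cells were fewest, and the 2 sets are ranges of a score, so no test was made between them. Myelin-high cells had more UMIs (median 783, against 526 in myelin-low cells). By library, 5 of 20, 165 of 334 and 147 of 406 mySC were myelin-high in NOD control, which is 25%, 49.4% and 36.2%.

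**Figure D2:**
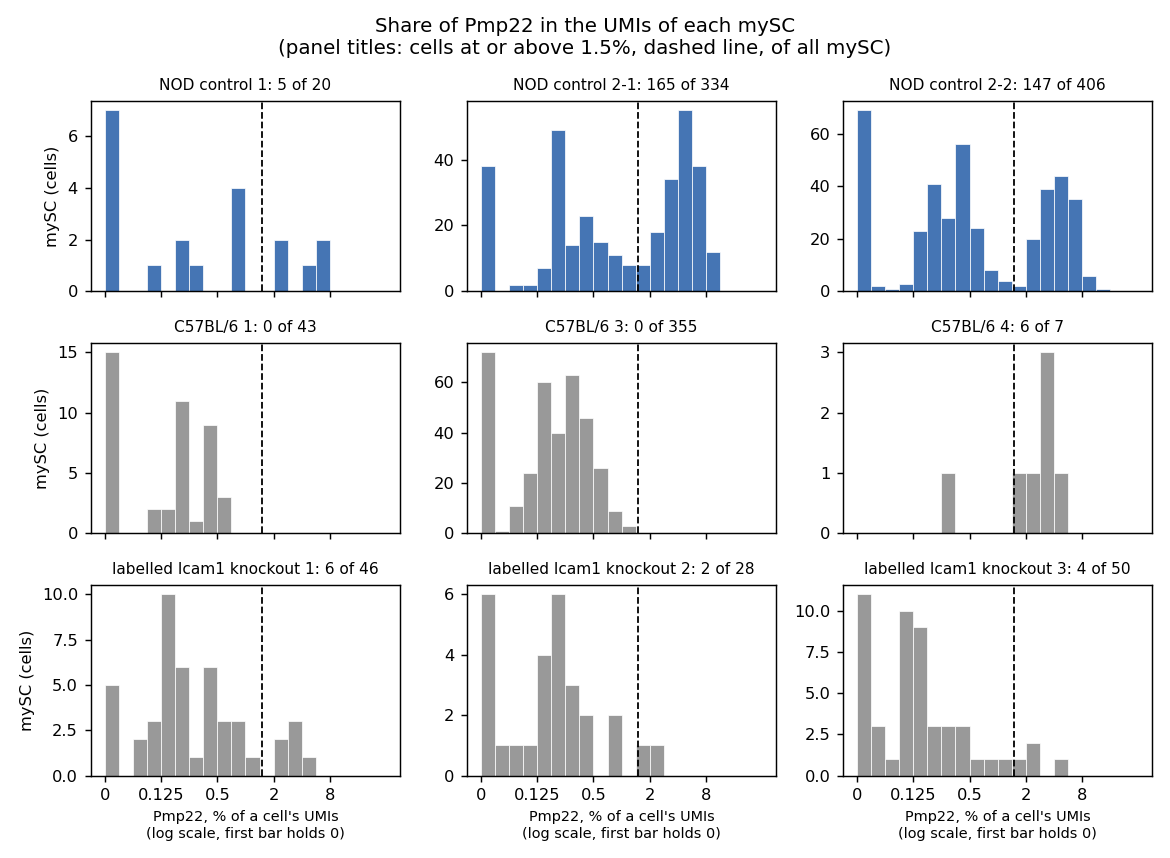
Number of mySC by the percent of each cell's UMIs that came from Pmp22 (log axis, bins of 0.5 on the log2 scale, first bar with the cells at 0), for the 3 NOD control libraries in blue and the other 6 mouse libraries in grey, with the cut of 1.5% dashed. In NOD control 2-1 and 2-2 the cells form a low and a high range, with 165 of 334 and 147 of 406 at or above the line, while C57BL/6 3 has 0 of 355 there.

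The other groups had other mixes. C57BL/6 libraries 1, 3 and 4 had 0 of 43, 0 of 355 and 6 of 7 myelin-high mySC, and the labelled knockout had 6 of 46, 2 of 28 and 4 of 50. Per sample the myelin-high share was 25% and 42.2% in NOD control, a mean of 33.6% ± 12.1 (SD, n = 2), and 9.40% ± 3.19 (SD, n = 3) in the labelled knockout. The samples did not overlap, and the two-sided exact permutation p was 0.1, the smallest that 10 splits allow. C57BL/6 had 28.6% ± 49.5 (SD, n = 3), and its samples lay on both sides of NOD control (exact permutation p = 1.0).

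The markers of the type were found in the myelin-high cells. Besides Pmp22 (51459 CPM in myelin-high and 2793 in myelin-low cells), which set the cut, Fam178b was at 1931 and 44.8 CPM, 43.1 times as high. Ugt8a was at 1489 and 82.1 CPM, Prx at 1084 and 59.7, and Mbp at 6064 and 1826. A UMI of Ugt8a was seen in 66.6% of myelin-high and 4.51% of myelin-low cells. After every cell was thinned to 400 UMIs, which left out 2 and 13 cells, these were 43.2% and 3.49%. In nmSC and B cells (BC, median 718 and 659 UMIs) the thinned shares were 0.457% and 0.705%. Free RNA was not estimated, and it cannot be told here from RNA that nmSC and BC make themselves. For Pmp22 the thinned shares were 100% and 65.3%, against 20.6% in nmSC and 17.6% in BC. So Pmp22 was seen in a larger share of myelin-low cells than of nmSC or BC, and the myelin-low cells had little Ugt8a or Fam178b.

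The 10 genes with the largest ratio in favour of myelin-high cells were Ncmap, Slc36a2, the secreted phosphoprotein Spp1, Fam178b, the fatty acid hydroxylase Fa2h, the potassium channel Kcnk1, Mt3, Ecscr, Drp2, a dystrophin-related protein of the myelin surface, and the membrane protein plasmolipin (Pllp). Ncmap was at 2357 and 37.3 CPM (63.1-fold), Spp1 at 2729 and 59.7 CPM (45.7-fold), and Mt3 at 1459 and 56.0 CPM (26.1-fold). In all, 495 of the 4235 genes (11.7%) were at least 2-fold higher in myelin-high cells and 745 (17.6%) in myelin-low cells.

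Myelin-low cells expressed genes of nonmyelinating Schwann cells. Scn7a was at 29.9 CPM in myelin-high and 1680 CPM in myelin-low cells, 56.2-fold, with 1531 and 1845 CPM in the myelin-low cells of libraries 2-1 and 2-2. Ncam1 had 0 UMIs in myelin-high and 102 in myelin-low cells (381 CPM), at least 38.2-fold higher on a floor of 3 counts over the group. The other genes of the first 10 were Chl1 and Cadm1, adhesion molecules of the immunoglobulin family, the potassium channel Kcna6, Wnt6, Ngfr, Sox4, Rnd3 and Nrn1, and Cadm1 was at 33.2 and 1139 CPM. The 6 nonmyelinating list members with at least 20 UMIs were all at least 2-fold higher in myelin-low cells. Their list summed to 59.8 CPM in myelin-high and 3047 CPM in myelin-low cells, with 58.4 and 2850 in library 2-1 and 62.5 and 3276 in library 2-2. In NOD control 1 the list had 0 UMIs in 5 myelin-high cells and 7 UMIs (758 CPM) in 15 myelin-low cells. In nmSC the list was at 286 CPM. The thinned share of cells with a UMI of the list was 67.0% in myelin-low and 2.54% in myelin-high cells, 11.1% in nmSC and 5.50% in BC, and unthinned it was 74.0%, 5.68%, 19.6% and 7.47%. Since 4 of the 10 leading genes (Scn7a, Ncam1, Chl1 and Ngfr) are markers of that list, the myelin-low cells can be called nonmyelinating Schwann-like, as a range of a score within mySC. Gap43, another member, was at 0 in mySC, as were Olig1, Shh and Bdnf of the repair list. Of the 17 repair list members 10 were detected. Among the 6 with at least 20 UMIs, 5 were at least 2-fold higher in myelin-low cells (17.6% of all genes) and 1 in myelin-high cells. Sox2 (172 CPM in myelin-low and 9.97 in myelin-high cells), Jun and Atf3 were among the 5. Jun and Atf3 are also on the immediate early list described below. The 1 on the other side was Spp1, at 2729 CPM in myelin-high and 59.7 CPM in myelin-low cells. The whole repair list was at 4615 CPM in myelin-low and 4062 CPM in myelin-high cells, and Spp1 made up most of the latter.

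General Schwann genes were detected in both ranges, and single members lay on either side. The pan Schwann list was at 1433 CPM in myelin-high and 1370 CPM in myelin-low cells, but 1 of its 5 members, S100b (1090.4 and 414 CPM), was at least 2-fold higher in myelin-high cells and 2, the cadherin Cdh19 (16.6 and 220.3) and Erbb3, in myelin-low cells. The myelin enzyme Cnp was at 2221 and 1956, and Cadm4 at 588 and 859. Over all genes, 11.7% were at least 2-fold higher in myelin-high and 17.6% in myelin-low cells. The list of Schwann regulators was higher in myelin-low cells, at 3644 against 1380 CPM. Of its 13 members 5 were at least 2-fold higher there and 1 in myelin-high cells. Nr2f2, a nuclear receptor (1004 against 126 CPM), Lgi4, a secreted ligand needed for myelination (597 against 83.1), Zeb2 (478 against 123) and the neuregulin receptor Erbb3 (153 against 16.6) were among the 5. Egr2, the activator of myelin genes, was the 1 on the other side, at 306 CPM in myelin-high and 131 CPM in myelin-low cells. Sox10 was at 276 and 519 CPM and Pou3f1 at 96.4 and 250 CPM.

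Lipid genes followed the myelin genes. The cholesterol synthesis list was at 6626 CPM in myelin-high and 2423 CPM in myelin-low cells, and 14 of its 19 members were at least 2-fold higher in myelin-high cells, with 0 the other way. Hmgcs1, which makes the precursor of mevalonate, was at 1064 and 358 CPM, and the sterol oxidase Msmo1 at 997 and 373. In the myelin lipid list 7 of 13 members were at least 2-fold higher in myelin-high cells, among them the elongase Elovl1 (1293 and 172 CPM) and Fa2h (492 and 14.9), and 1, the aspartoacylase Aspa (166 and 511), in myelin-low cells. Of 10 genes of the inherited neuropathy list with at least 20 UMIs, 7 were at least 2-fold higher in myelin-high cells (11.7% of all genes) and 0 in myelin-low cells. Of secreted factors, Sema3b was at 1569 and 485 CPM and desert hedgehog, Dhh, which acts on the perineurium, at 688 and 228.

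Stress, complement and MHC class I genes were mostly higher in myelin-low cells. Of 17 immediate early genes 13 were at least 2-fold higher there, against 17.6% of all genes. Their list was at 23543 CPM against 11054 in myelin-high cells. Fos was at 6306 and 3122, Jun at 3084 and 1190, and Atf3 at 877 and 83.1. MHC class I genes were at 3442 and 1503 CPM (8 of 9 members), with H2-D1 at 702 and 153 CPM and B2m at 1564 and 1107. Of 6 members of the complement regulation list with at least 20 UMIs, 4 were at least 2-fold higher in myelin-low cells. The other way went 1, against 11.7% of all genes. The complement component C4b was at 441 CPM in myelin-low and 26.6 CPM in myelin-high cells. MHC class II genes went the other way, at 889 in myelin-low and 1702 CPM in myelin-high cells, with Cd74 at 399 and 701 CPM. Class II levels differed between libraries (153 CPM in library 1, 1758 in library 2-1 and 1063 in library 2-2), and B cells are rich in these genes, whose part in these levels was not tested.

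**Figure D3:**
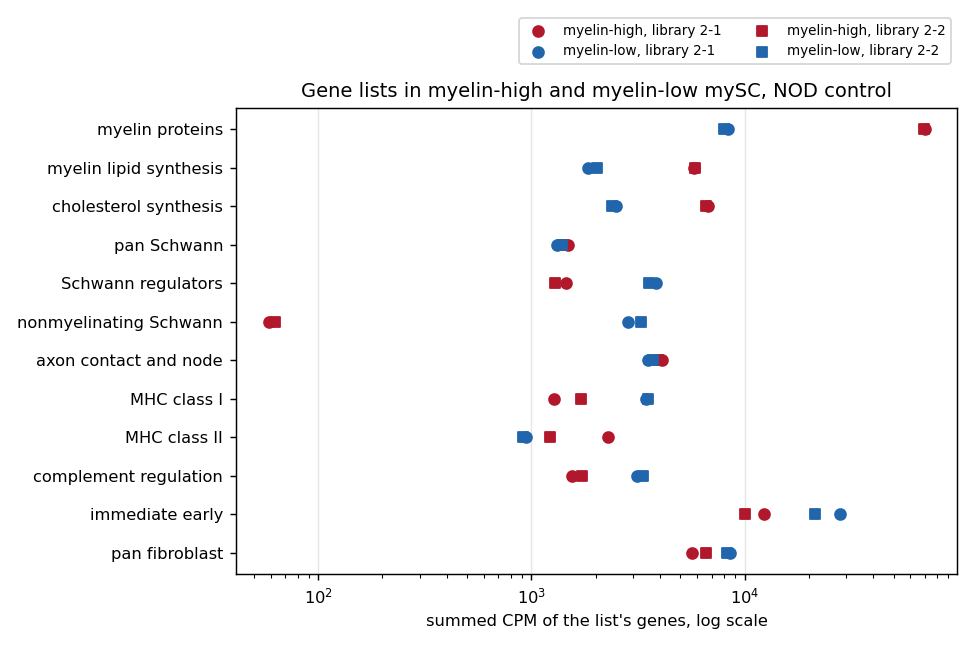
Summed CPM on a log axis of 12 gene lists in myelin-high (red) and myelin-low (blue) mySC of NOD control libraries 2-1 (circles) and 2-2 (squares). Library 1, with 20 mySC, is not drawn. The nonmyelinating list is at 58.4 and 62.5 CPM in myelin-high and at 2850 and 3276 CPM in myelin-low cells, the myelin lists lie the other way, and the axon contact list lies together.

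Clustering of the 760 cells split each range once more. Clusters 1 and 2 (272 and 164 cells) held 3 and 0 myelin-high cells, and clusters 3 and 4 (228 and 96 cells) held 221 and 93. Within each pair the clusters differed in immediate early genes, whose median share of a cell's UMIs was 0.661% in cluster 1 and 4.51% in cluster 2, and 0.165% in cluster 3 and 2.79% in cluster 4. Cluster 2 was led by Hspb1, H2-Q4, Otud1, Klf4 and Atf3 (1765 CPM), and cluster 4 by B430010I23Rik, Mt1 (4232 CPM), Egr2 (534 CPM) and Sgk1 (504 CPM). Enzymatic release of cells is known to raise immediate early genes, and its part here was not tested. These genes define the clusters and are no test of them.

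The mySC of NOD control were then compared with those of the libraries labelled Icam1 knockout, with UMIs summed per sample (46, 28 and 50 against 20 and 740 cells) and edgeR's quasi-likelihood test. Icam1 encodes an adhesion receptor that leukocyte integrins bind, and over annotated cells it was not lower in the labelled libraries. It was at 248, 262 and 255 CPM there and at 94.5, 44.4 and 56.0 CPM in NOD control libraries 1, 2-1 and 2-2. Most annotated cells were leukocytes in the labelled libraries only, and the part of this mix was not tested. In EC it had 5, 7 and 4 UMIs (143, 276 and 134 CPM) in the labelled libraries. In EC of NOD control it had 1, 4 and 4 UMIs (49.0, 48.4 and 45.2 CPM). In mySC it had 5, 1 and 5 UMIs in the labelled libraries and 1, 2 and 3 UMIs in NOD control. A 3' tag outside the deleted part would check nothing, so the contrast is between libraries as labelled. Of 1711 genes tested 195 (11.4%) passed an adjusted p of 0.05, 96 higher (5.61%) and 99 lower (5.79%) in the labelled libraries, with a median log2 change of 0.02 over all genes. Of the 99 lower genes 60 were at least 2-fold higher in myelin-high cells of NOD control, a property of 134 of the 1711. In sums over all mySC, fewer myelin-high cells and less myelin RNA per cell cannot be told apart, so the same fit was run on myelin-low cells alone, with 15 and 428 NOD control cells. It called 110 of 1577 genes (6.98%), 65 higher (4.12%) and 45 lower (2.85%), with a median of 0.01. Of the 195 genes, 163 were tested there and 89 called, all in the same direction. These cells are a subset of the same samples.

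Myelin genes fell in all mySC and mostly did not pass the test in myelin-low cells. Of 11 myelin protein genes tested 8 fell (median log2 change -1.80), and in myelin-low cells 1 of 9 did (median -0.29). Ugt8a was at 67.0, 91.3 and 175 TMM-scaled CPM in the labelled libraries 1, 2 and 3 and at 905 and 1369 in NOD control 1 and 2, a log2 change of -3.45 ± 0.39 (SE, adjusted p = 2.23e-06). The groups did not overlap. Pmp22, at 6501, 3927 and 4320 against 18828 and 47662 CPM, changed by -2.77 ± 0.36 (SE, adjusted p = 1.37e-05). In myelin-low cells it was at 4083, 3290 and 2233 against 2909 and 4463 CPM and the groups overlapped (-0.29 ± 0.30, adjusted p = 0.698). Pmp22 set the cut, and the myelin-high cells it takes out carried most RNA of the other myelin genes too, so the values of all myelin genes in myelin-low cells are conditioned by it. Mag fell in both fits (-2.45 ± 0.42 and -2.03 ± 0.54, adjusted p = 0.000346 and 0.0159). Prx and Mbp fell in all mySC (-1.80 ± 0.37 and -1.23 ± 0.27, adjusted p = 0.00166 and 0.00359) and were at 0.56 ± 0.80 and -0.12 ± 0.30 in myelin-low cells (adjusted p = 0.779 and 0.889). Sox10 did not pass the test (-0.14 ± 0.32, adjusted p = 0.873).

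Lipid genes followed: 6 of 6 cholesterol synthesis genes (median -2.34) and 6 of 10 myelin lipid genes (median -1.20) fell in all mySC. In myelin-low cells 2 of 4, Hmgcs1 (-1.94 ± 0.49, adjusted p = 0.0103) and Msmo1 (-1.56 ± 0.40, adjusted p = 0.0116), and 0 of 7 did by edgeR (4 and 1 at an unadjusted p under 0.05; DESeq2 was not run on myelin-low cells). The samples overlapped for Hmgcs1 there, with 1 UMI in NOD control 1, and did not for Msmo1. The 6 falling genes with the largest change by the naming rule were Evc2, Mfap5, Spon2, Spp1, Apod and Sncg. Evc2 had 0 UMIs in the labelled libraries and 4 and 86 in NOD control 1 and 2, at least 10.6-fold lower on the floor of 3 counts over the group. Mfap5, which encodes a microfibril protein and is a marker of epineurial fibroblasts, had 1 and 534 UMIs over the groups, a pooled ratio of 188 (95% exact interval 33.6 to 7444). In NOD control mySC Mfap5 was on the myelin-high side, at 1692 and 93.3 CPM. Apod, also a fibroblast marker, fell by 4.41 ± 0.47 on the log2 scale (adjusted p = 1.3e-06), and 4 of 7 pan fibroblast genes fell and 1, Col3a1, rose. The fibroblast list's part in the result was not tested.

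Antigen presentation and interferon genes were higher in the labelled libraries in both fits. All 12 genes of the MHC class I list, chains and peptide processing genes together, rose in all mySC (median log2 change 3.45). In myelin-low cells 11 of 12 did (median 2.85). H2-D1, a class I heavy chain, was at 12650, 13026 and 12251 TMM-scaled CPM in the myelin-low cells of the labelled libraries and at 126 and 1151 CPM in NOD control 1 and 2 (3.75 ± 0.41, adjusted p = 4.41e-07). B2m, the light chain, was at 16198, 15578 and 15096 against 1771 and 2493 CPM (2.78 ± 0.35, adjusted p = 3.76e-06). The groups were far apart for both genes, but H2-D1 had only 1 UMI in the myelin-low cells of NOD control 1. The whole class I list had 21 UMIs there. Of 9 interferon gamma response genes 9 rose in all mySC (median 4.35) and 7 in myelin-low cells (median 3.85). The guanylate-binding protein Gbp3 had 22, 7 and 28 UMIs against 0 and 2 in all mySC (5.75 ± 0.63, adjusted p = 1.72e-06). The GTPase Iigp1 had 30, 20 and 26 UMIs against 0 and 1, a pooled ratio of 216 (37.6 to 8632), and Ifi47 had 55, 27 and 36 against 0 and 5. Gm4951, Ccl8 and Irgm1 were the other 3 of the 6 rising genes. Of 5 class II genes 3 rose in all mySC and 4 in myelin-low cells, where Cd74 changed by 2.32 ± 0.37 (adjusted p = 0.000102). The type I interferon list had 7 of 8 members called higher in all mySC and 3 in myelin-low cells.

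Leukocyte RNA and mitochondrial RNA moved with the groups. The T cell list was at 327, 411 and 532 CPM in mySC of the labelled libraries and at 0 and 81.0 CPM in NOD control 1 and 2, and the B cell list at 239, 137 and 221 against 0 and 130 CPM. The myeloid list was at 88.0, 228 and 182 against 153 and 176 CPM, and these groups overlapped. The MHC class I list was at 26705, 28278 and 25441 CPM against 2062 and 2425 CPM. The list of genes encoded by the mitochondrial genome, whose level is used as a sign of RNA quality, was at 25184, 25103 and 28856 CPM against 7026 and 13180 CPM, with groups apart, and 3 of its 9 members tested were called higher. The part of leukocyte RNA and of RNA quality in the results of this contrast was not tested.

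Immediate early genes were in part lower in the labelled libraries' myelin-low cells, and nonmyelinating genes did not move together. Of 4 nonmyelinating genes tested in all mySC 1 rose, the neurotrophin receptor Ngfr (1.13 ± 0.34, adjusted p = 0.033), and 0 fell (median -0.04). In myelin-low cells Ngfr was at 0.36 ± 0.33 (adjusted p = 0.649). Scn7a there, at 725, 269 and 435 against 126 and 2764 CPM, changed by -2.08 ± 0.40 (adjusted p = 0.000839), and the groups overlapped, with 1 UMI in NOD control 1. It was the only 1 of 4 members tested there to pass, and 2 had an unadjusted p under 0.05. S100b, a calcium-binding Schwann protein, was at 134, 134 and 59.3 against 253 and 671 CPM (-2.50 ± 0.44, adjusted p = 0.000356). Of 14 immediate early genes 7 fell in myelin-low cells, with Fos at -1.23 ± 0.28 (adjusted p = 0.00449) and Atf3 at -1.76 ± 0.37 (adjusted p = 0.0018), and 3 in all mySC.

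The knockout-label contrast rests on NOD control 2: without it 50 genes were called in all mySC, against 403 without NOD control 1 and 79 without labelled library 3. Myelin protein genes then fell in 3 of 11, 11 of 13 and 5 of 10, and MHC class I genes rose in 8, 12 and 11 of 12. Where a group is left with 1 sample, it is assumed to vary like the other group. Without labelled library 3, 6 of 7 interferon gamma and 4 of 7 type I interferon genes rose, and 1 of 3 cholesterol genes fell. Without NOD control 2, fewer members of these 3 lists passed than in the main fit. Their median log2 changes were then 6.92, 6.55 and -1.62, against 4.35, 2.03 and -2.34 in the main fit. NOD control 1 held only 8, 5 and 38 UMIs of these lists.

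**Figure D4:**
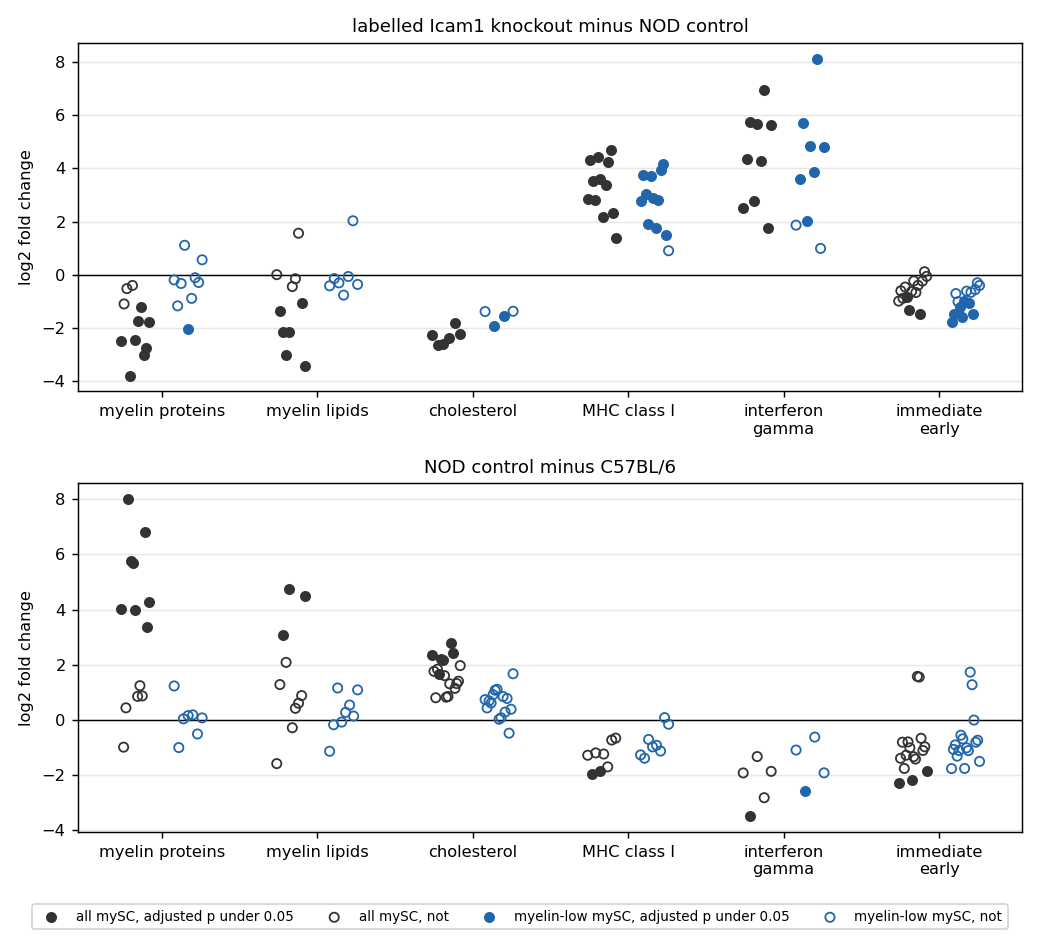
Log2 fold change of each tested member of 6 gene lists in all mySC (black) and myelin-low mySC (blue), for the labelled Icam1 knockout minus NOD control (top) and NOD control minus C57BL/6 (bottom), with filled points at an adjusted p under 0.05 by edgeR. At the top, MHC class I genes stay above 0 in both sets of cells (medians 3.45 and 2.85) while the myelin protein median goes from -1.80 to -0.29, and at the bottom, without C57BL/6 4, the myelin protein median goes from 3.99 to 0.08.

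The mySC of NOD control were last compared with those of C57BL/6 libraries 1 and 3 (43 and 355 cells), without library 4, which had 7 mySC. Both contrasts share the NOD control samples, so they are not independent. Of 3021 genes 207 (6.85%) passed, 117 higher (3.87%) and 90 lower (2.98%) in NOD control, with a median log2 change of -0.01. Of the 117 higher genes 80 were at least 2-fold higher in myelin-high cells of NOD control, a property of 264 of the 3021. In myelin-low cells 48 of 2674 genes (1.8%) passed, 22 higher (0.823%) and 26 lower (0.972%), with a median of -0.03. Of the 207 genes 143 were tested there and 42 called, all in the same direction.

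Myelin genes were higher in all mySC of NOD control than in C57BL/6 1 and 3, and did not pass the test when C57BL/6 4 was counted in. Of 13 myelin protein genes 8 rose in all mySC (median 3.99), and in myelin-low cells 0 of 7 were called by edgeR (median 0.08), and 0 had an unadjusted p under 0.05. The cut takes no cell from C57BL/6 1 and 3 and 317 from NOD control, so the myelin-low values of myelin genes are conditioned by it. Pmp22 was at 15451 and 38262 TMM-scaled CPM in NOD control and at 2073 and 3143 CPM in C57BL/6 (3.35 ± 0.82, adjusted p = 0.00153), with groups apart. In myelin-low cells it was at 2243 and 3692 against 2294 and 3395 CPM (0.08 ± 0.66, adjusted p = 0.998), and the groups overlapped. Ugt8a had 10 and 460 UMIs against 0 and 12 (4.48 ± 0.69, adjusted p = 2.93e-08), and Fam178b changed by 5.76 ± 0.80 (adjusted p = 4.24e-10). Sox10 was at 520 and 514 against 451 and 483 CPM (0.13 ± 0.55, adjusted p = 0.984). Slc36a2 (202 UMIs in NOD control), Drp2 (85) and the elongase Elovl7 (82) had 0 UMIs in C57BL/6 1 and 3, which makes them at least 39.6-fold, 16.6-fold and 16.1-fold higher. Spp1 had 837 against 1 and Mt3 454 against 1 UMI, pooled ratios of 492 (95% exact interval 88.0 to 19446) and 267 (47.6 to 10558). Library 4 of C57BL/6, with 6 myelin-high cells among 7, went the other way. Its myelin protein list was at 46657 CPM, against 7012 and 8394 in C57BL/6 1 and 3 and 29708 and 40982 in NOD control 1 and 2. A fit with library 4, added after seeing the data, tested 430 genes and called 2 by edgeR (30 at an unadjusted p under 0.05). It called 0 of 9 myelin protein genes (median 0.98).

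Fewer changes were found in the myelin-low cells of the strains. The metallothioneins Mt1 and Mt2 fell there. Mt1 was at 195 and 978 CPM in NOD control against 9327 and 8727 CPM in C57BL/6 (-3.69 ± 0.83, adjusted p = 0.0222). Its value in NOD control 1 rests on few UMIs, from 15 cells. Mt2 changed by -2.69 ± 0.64 (adjusted p = 0.0285). Mt3, which was higher in all mySC of NOD control, was not tested in myelin-low cells. The interferon response gene Ifi47 had 0 and 5 UMIs against 2 and 34 and was also lower (-2.55 ± 0.64, adjusted p = 0.0417). Pttg1 (2 against 83 UMIs over all mySC, ratio 70.6, 18.9 to 593), the collagen gene Col11a1 (2 against 41, ratio 34.9, 9.06 to 298) and 4930469K13Rik (1 against 25, ratio 42.6, 6.97 to 1747) led the falling genes in all mySC and passed in myelin-low cells too. In myelin-low cells 0 of 6 nonmyelinating genes, 0 of 16 immediate early genes and 0 of 8 MHC class I genes passed by edgeR, and 0, 6 and 0 had an unadjusted p under 0.05. All 4 MHC class II genes tested rose in all mySC (median 4.26) and 0 of 2 passed in myelin-low cells, where both had an unadjusted p under 0.05. With DESeq2 0 of 4 class II genes were called in all mySC, and with no filter on low counts 0 of 7. RNA of other cell types was higher in NOD control 2 than in C57BL/6 3, with the B cell list at 130 and 3.23 CPM, the T cell list at 81.0 and 3.23, the myeloid list at 176 and 51.7 and the endothelial list at 212 and 48.5. In NOD control 1 and C57BL/6 1 the B and T cell lists had 0 UMIs and the myeloid and endothelial lists 1 or 2. The part of that RNA was not tested. The mitochondrial list in mySC was at 7576 and 29491 CPM in C57BL/6 1 and 3 and at 7026 and 13180 CPM in NOD control 1 and 2, and the groups overlapped. Of its 10 members tested, edgeR called 4 lower in NOD control in all mySC and 1 in myelin-low cells. The part of RNA quality in the strain contrast was not tested. The strains carry different H2 haplotypes and the counting used a C57BL/6 reference, whose part was not tested.

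Some strain calls are uncertain because genes have near-identical copies. Gm10260 (15 and 411 UMIs in NOD control, 1 and 0 in C57BL/6) rose while Rps18 (1 and 29 against 63 and 395) fell, and 68.7% of the 31-base words of Gm10260 occur in Rps18. Rnaset2b, with 0 UMIs in NOD control, shares 62.2% of its words with Rnaset2a, and Plac9b 96.6% with Plac9a. The strain contrast rests on few cells: without NOD control 2 it called 6 genes, without C57BL/6 3 it called 40, without C57BL/6 1 it called 110, and without NOD control 1 it called 254. Myelin protein genes rose in 1 of 7, 5 of 9, 6 of 13 and 8 of 13 under these.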

How the data were processed

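Droplet 3' libraries (10x, version 2 chemistry) of 9 mouse nerve samples were used. Deposited were the authors' UMI counts for each gene and barcode, made with Cell Ranger 3.0.2 and mm10 per the submitters' processing notes, and a cell type name per barcode. The sources used here do not give how cells were named, whether doublets were removed or free RNA corrected. NOD control mySC were taken by that name. The members and gene lists were chosen with earlier results of these data known, and 3 genes of the lists are not reported here and were left out of list values.

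UMIs were summed per cell type or sample and given as CPM, for types with at least 50 cells and genes with at least 20 UMIs. TMM-scaled CPM are given with the contrasts. Contrasts used edgeR 4.0.16 in R 4.3.3 on sums per sample with at least 20 mySC (10 for myelin-low cells): filterByExpr (minimum count 10), quasi-likelihood fits with no covariates and Benjamini-Hochberg adjustment over all genes tested at 0.05. The fit was run on simulated counts with a single fixed spread and large changes, which checks the code and does not measure its error on these samples. Named were the 15 leading genes, up to 6 members of each list, and the 6 rising and 6 falling genes with the largest change, groups that did not overlap and a mean of 5 or more on the log2 CPM scale. The genes of the myelin-high and myelin-low comparison, Otud1, B430010I23Rik, Rnaset2a, Plac9a, Cnp, Dhh and other examples were named after their values were seen. Alternatives were RLE factors, DESeq2 1.42.0, no filter, separate libraries, Scrublet (scanpy 1.11.5) doublets removed, a replicate block and leaving out samples. Clusters were made with Leiden at resolution 0.5 on 15 principal components of 1500 variable genes. The myelin-low fits, the 1.5% cut on Pmp22 and a strain fit with C57BL/6 4 were added after seeing the data. A floor is 3 counts.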

Additional observations from a re-analysis of the deposited data

How the results depend on the processing

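Precision was limited by few mySC per sample (20 in NOD control 1) and by 2 or 3 samples a group. The number of genes highest in mySC, 136 at 4-fold over each other type, was 278 at 2-fold, 87 at 8-fold, 77 in library 2-1 alone and 443 against all other cells pooled, and 112 to 138 under the other settings. The myelin-high share of 41.7% was 49.4% in library 2-1 alone, 36.2% in library 2-2 alone and 40.4 and 43.3% with cuts of 2% and 1%. The difference in mySC share from C57BL/6 ran from -3.64 (without NOD control 2) to 13.7 points when samples were left out, and that from the labelled knockout from -1.01 to 16.3, and it was -14.4 with non-leukocytes as the total.

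The knockout-label contrast called 195 genes, against 70 with DESeq2, 317 with libraries 2-1 and 2-2 separate, 110 in myelin-low cells and 50 to 403 when samples were left out. With the replicate number as a block it called 92 genes (50 higher, 42 lower), and the labels do not say that the numbers pair samples. The strain contrast called 207 genes, against 32 with DESeq2, 50 with no filter on low counts, 535 with separate libraries, 48 in myelin-low cells, 2 (of 430 tested) with C57BL/6 4 added and 6 to 254 when samples were left out. With DESeq2, 10 of 12 MHC class I, 7 of 9 interferon gamma response and 6 of 11 myelin protein genes were called in the knockout-label contrast, and 2 of 6 cholesterol, 2 of 10 myelin lipid, 2 of 8 type I interferon, 1 of 5 class II and 0 of 14 immediate early genes (edgeR 6, 6, 7, 3 and 3). In the strain contrast DESeq2 called 5 of 13 myelin protein, 2 of 10 myelin lipid, 0 of 17 cholesterol and 0 of 4 class II genes (edgeR 8, 3, 6 and 4). No paired analysis was possible for the strain contrast because its samples share only 1 replicate number. Of single genes, Prx (0.56) and Mlip (0.027) reversed in myelin-low cells of the knockout contrast, neither past the threshold. The cause was not tested.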

Other observations

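Xist, the RNA of the inactive X chromosome, was at 687, 731 and 874 TMM-scaled CPM in mySC of the labelled knockout libraries and at 2172 and 2026 CPM in NOD control (-1.43 ± 0.26, adjusted p = 0.000563 by edgeR). It was also lower in myelin-low cells (-1.49 ± 0.27, adjusted p = 0.000384). Over annotated cells of all 9 mouse libraries Xist was at 619 to 2618 CPM, and 4 Y-linked genes together had 0 to 13 UMIs a library.

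The few myelin-high cells of the other groups were chosen by Pmp22, which made up most of the myelin protein list (51459 of 69693 CPM in NOD control), so the list's level in them is conditioned by the cut. It was at 69693 CPM in NOD control (317 cells), 51669 CPM in C57BL/6 (6 cells, library 4) and 45477 CPM in the labelled knockout (12 cells), with no test. MHC class I genes in these cells were at 1503, 1276 and 15294 CPM.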
